A study of Sus scrofa with 10 samples.

Results

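CCPG1 and SELENOS, 2 genes of the response to stress in the endoplasmic reticulum (ER), were followed in pig blood from birth to adulthood. They were taken by identifier, ENSSSCG00000004610 for CCPG1 and ENSSSCG00000004826 for SELENOS, and were 2 of the 12354 mRNAs in the table. The 10 libraries came from whole blood of female Qingyu pigs, an indigenous Chinese breed, with 2 pigs at each of 5 ages and other pigs at every age. The ages were newborn (D0), suckling (D7), weaning (D28), sexual maturity (D180) and adult (Y2). The labels give no treatment, so each age had other ages as its only reference. Total RNA was depleted of ribosomal RNA and sequenced with strand-specific libraries. In blood that was not sorted, fewer cells of a type and less RNA per cell cannot be told apart.

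Proteins that misfold in the ER set off the unfolded protein response, in which 3 membrane sensors, encoded by ERN1, EIF2AK3 and ATF6, raise chaperones and disposal genes. SELENOS encodes a selenoprotein of the ER membrane that binds VCP and the derlins, the machinery that pulls misfolded proteins into the cytosol for degradation (ERAD). CCPG1 encodes an ER membrane protein that is induced by the unfolded protein response and serves as a receptor for ER-phagy, the delivery of pieces of ER to autophagosomes. The genes thus belong to separate branches of ER clearance.

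The libraries differed in how much of the total the leading mRNAs took. The 10 mRNAs with the highest mean over all libraries held 83.2 to 90.7% of all mRNA FPKM (fragments per kilobase of transcript, set against the mapped fragments of the library) at D0, D7, D28 and Y2, and 68.1 to 68.2% at D180. Measured red cell markers, 6 of 7 listed, summed to 480364 to 482385 FPKM at D0 and to 113586 to 136194 FPKM at D180. Nearly all of these sums was the globin gene HBB, at 473197 and 470930 FPKM at D0 and 133644 and 111246 FPKM at D180. Between D28 and D180 the median mRNA rose by 1.07 on the log2(FPKM + 1) scale, so each member is given as deposited and after median-of-ratios scaling. That scaling divides each library by its median ratio to a common reference, and its factors ran from 0.437 to 3.03. The percentile of a gene among the mRNAs of its own library, and the ratio of the 2 members within a library, do not depend on any scaling.

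CCPG1 was lowest at weaning on every scale. As deposited, CCPG1 measured 13.8 and 14.0 FPKM at D0, 14.0 and 14.9 FPKM at D7 and 8.23 and 9.99 FPKM in D28 pigs. At the later ages CCPG1 measured 57.2 and 53.8 FPKM at D180 and 34.8 and 32.7 FPKM at Y2. The D28 pigs lay below the other 8, and all 4 pigs of D180 and Y2 lay above all younger pigs. After scaling, the CCPG1 values were 31.5 and 30.9 at D0, 28.0 and 27.7 at D7, 8.21 and 10.3 in D28 pigs, 19.9 and 17.7 at D180 and 21.8 and 20.6 at Y2. The D28 pigs were again the lowest, but the newborn and D7 pigs now stood above the D180 and Y2 pigs. The share of all mRNAs with that second separation was not counted. In the limma comparisons of these ages given below, 22.7 to 27.4% of mRNAs were called lower at the later age. Both D28 libraries lay below the other 8 for 3.69% of all mRNAs as deposited and for 9.94% after scaling. All 4 D180 and Y2 libraries lay above all younger ones for 70.9% of mRNAs as deposited.

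**Figure D1:**
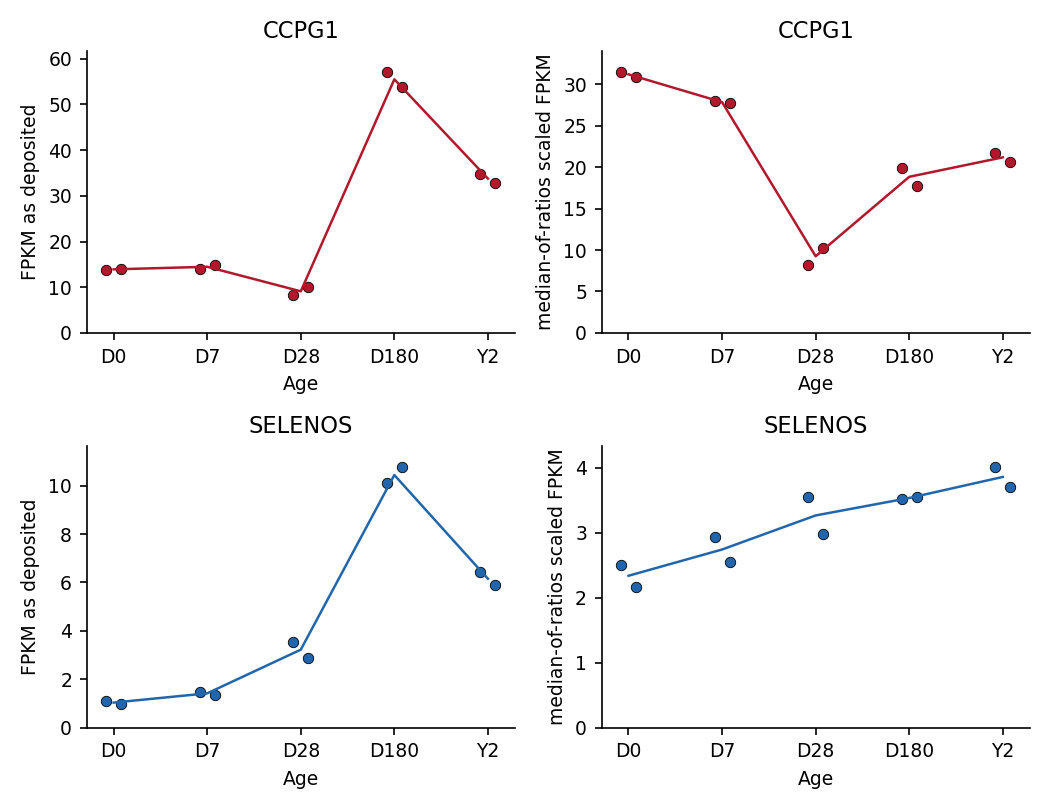
FPKM of CCPG1 (top, red) and SELENOS (bottom, blue) by age, as deposited (left) and after median-of-ratios scaling (right). Points are single pigs, 2 an age, and lines join the age means; CCPG1 is lowest at D28 in both panels, while the D180 peak of SELENOS as deposited is absent after scaling, where its means run from 2.34 to 3.86.

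The fall of CCPG1 into weaning and its rise out of it passed the test on both scales. In limma's moderated test on log2(FPKM + 1), with Benjamini-Hochberg adjustment over all mRNAs, CCPG1 fell by 0.62 (SE 0.0907) from D7 to D28 as deposited, adjusted p = 0.000359. Of all mRNAs, 5.9% were called lower in that step and 65.3% higher, and the change of CCPG1 stood at percentile 2.22 of all changes. After scaling CCPG1 fell by 1.5 (SE 0.0995, limma adjusted p = 1.11e-05), where 22.8% of mRNAs were called lower. The scaled mean of CCPG1 at D7 was 3.01 times that at D28.

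From D28 to D180, CCPG1 rose by 2.49 on the log2 scale as deposited (limma adjusted p = 8.63e-08), a ratio of means of 6.09. In that step 90.6% of mRNAs were called higher, and 17.8% were called higher by at least 1.5 on the log2 scale, as CCPG1 was. After scaling CCPG1 rose by 0.96 (SE 0.0995, limma adjusted p = 0.000148) where 14.4% of mRNAs were called higher, and its change stood at percentile 98.2. The steps into and out of D28 share the D28 libraries.

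The remaining steps of CCPG1 depended on the scaling. From D0 to D7 the log2 change was 0.05 as deposited (limma adjusted p = 0.744) and -0.16 scaled (limma adjusted p = 0.252). From D180 to Y2 CCPG1 fell by 0.70 as deposited (limma adjusted p = 0.000130), close to the median mRNA at -0.65, and 84.6% of mRNAs were called lower. After scaling that step was 0.16 (limma adjusted p = 0.383) and was not called.

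SELENOS had a lower level than CCPG1 in every library, per unit of transcript length. Its mean climbed up to D180 and was lower at Y2 as deposited. After scaling the mean rose with each age, though no step between neighbouring ages was called. As deposited, SELENOS measured 1.10 and 0.988 FPKM at D0, 1.47 and 1.37 FPKM at D7 and 3.56 and 2.89 FPKM in D28 pigs. At the later ages SELENOS measured 10.1 and 10.8 FPKM at D180 and 6.43 and 5.88 FPKM at Y2. The D180 mean was 10.01 times the D0 mean, in a comparison where 92.5% of all mRNAs were called higher as deposited. No pig of one age overlapped with a pig of another, but how many mRNAs share that was not counted. The separation is therefore not read as a trait of SELENOS. After scaling, the SELENOS values were 2.51 and 2.17 at D0, 2.94 and 2.55 at D7, 3.56 and 2.98 in D28 pigs, 3.51 and 3.56 at D180 and 4.02 and 3.70 at Y2. The scaled ranges of neighbouring ages met or nearly met at several points, and one D28 pig lay between the D180 pigs.

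As deposited, SELENOS rose by 0.80 from D7 to D28 (limma adjusted p = 9.90e-05) and by 1.44 from D28 to D180 (limma adjusted p = 8.42e-07) on the log2 scale. SELENOS then fell by 0.68 from D180 to Y2 (limma adjusted p = 0.000169), and its change from D0 to D7, 0.25, was not called (limma adjusted p = 0.0841). These changes of SELENOS stood at percentiles 46.6 to 78.8 of all mRNAs. After scaling no neighbouring step of SELENOS was called. The scaled changes were 0.16 (SE 0.0954) from D0 to D7, 0.19 from D7 to D28, 0.09 from D28 to D180 and 0.10 from D180 to Y2, with limma adjusted p from 0.153 to 0.608.

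Ages farther apart did differ for SELENOS after scaling, in comparisons added after the values had been seen. The scaled level of SELENOS was above that of D0 by 0.35 at D28 (limma adjusted p = 0.0149), by 0.44 at D180 (limma adjusted p = 0.00466) and by 0.54 at Y2 (limma adjusted p = 0.00161). In these comparisons 22.2%, 24.9% and 25.1% of mRNAs were called higher. SELENOS was also above its D7 level by 0.28 at D180 (limma adjusted p = 0.0492) and by 0.38 at Y2 (limma adjusted p = 0.0140), where 15.7% and 17.6% of mRNAs were called higher. Scaled SELENOS at Y2 exceeded D28 by 0.19, which was not called (limma adjusted p = 0.170).

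After scaling, CCPG1 ran the other way over the same distances, which its percentile within a library, given below, did not show. Its scaled level at D28 was below D0 by a log2 change of -1.66 (limma adjusted p = 3.44e-06), where 28% of mRNAs were called lower. Scaled CCPG1 was also below D0 at D180, -0.70 (limma adjusted p = 0.000458), and at Y2, -0.54 (limma adjusted p = 0.00213), with 27.4% and 26.7% of mRNAs called lower. Against D7, scaled CCPG1 changed by -0.54 at D180 (limma adjusted p = 0.00302) and by -0.38 at Y2 (limma adjusted p = 0.0165), with 22.7% and 23.1% called lower. As deposited, by contrast, CCPG1 at D180 was above D0 by 1.92 (limma adjusted p = 5.62e-08) and above D7 by 1.87 (limma adjusted p = 7.69e-08), directions called for 92.5% and 93.5% of mRNAs.

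The levels of CCPG1 therefore ranked D28, D0, D7, Y2 and D180 from low to high as deposited, with D0 and D7 not distinguished. After scaling the CCPG1 order was D28, D180, Y2, D7 and D0, where D180 and Y2 were not distinguished and neither were D7 and D0. SELENOS ranked D0, D7, D28, Y2 and D180 as deposited, with D0 and D7 not distinguished. After scaling SELENOS ranked D0, D7, D28, D180 and Y2, and no neighbours in that order were distinguished.

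**Figure D2:**
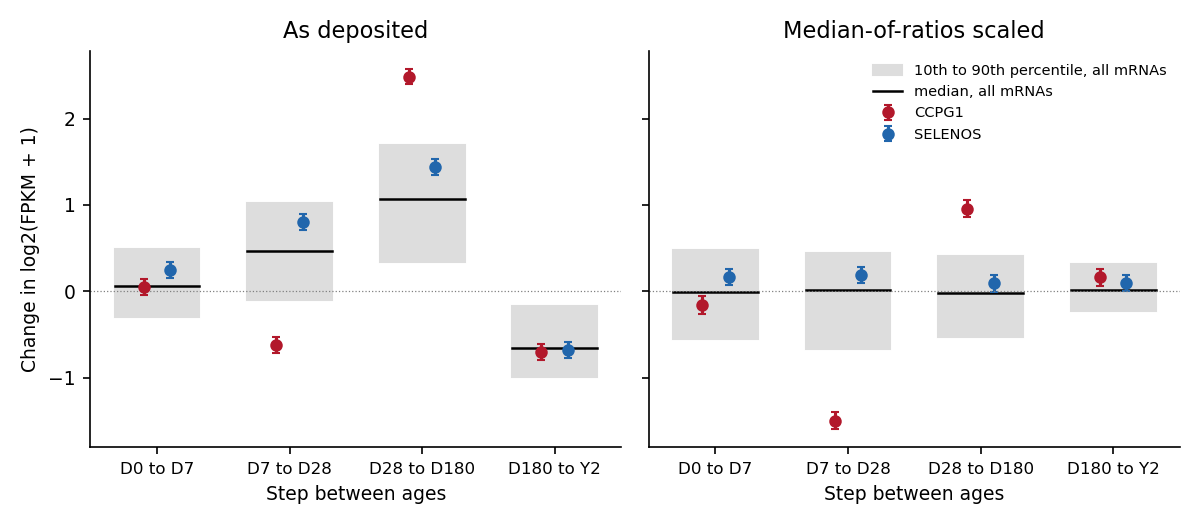
Change in log2(FPKM + 1) between neighbouring ages for CCPG1 (red) and SELENOS (blue), with bars of 1 SE from limma, as deposited (left) and scaled (right). Grey boxes span the 10th to 90th percentile of all 12354 mRNAs and black lines mark their median; CCPG1 lies outside the box at D7 to D28 and D28 to D180 in both panels, and SELENOS lies inside every box.

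The study groups its ages into a suckling period (D0, D7 and D28, 6 libraries) and a later period (D180 and Y2, 4 libraries). As deposited, both members were higher in the later period, CCPG1 by 1.74 (SE 0.284, limma adjusted p = 8.81e-05) and SELENOS by 1.72 (SE 0.288, limma adjusted p = 0.000103). That direction was called for 87.3% of all mRNAs, and all 4 later libraries lay above all 6 suckling ones for 70.9%. After scaling the difference was -0.014 for CCPG1 (SE 0.376, limma adjusted p = 0.986). For SELENOS it was 0.32 (SE 0.106), which missed the limit at limma adjusted p = 0.0601, and 6.78% of mRNAs were called higher.

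Within its own library CCPG1 ranked high at every age, and lowest at weaning. Its percentile was 94.84 to 95.05 at D0, 94.90 to 94.96 at D7, 85.84 to 88.37 in D28 pigs, 95.08 to 95.47 at D180 and 95.35 to 95.56 at Y2. Counted from the top, CCPG1 was between rank 550 and rank 639 in 8 libraries, and at ranks 1750 and 1438 in the D28 libraries. Both D28 libraries had the lowest percentiles for 10.1% of all mRNAs. All 4 later libraries lay above all 6 suckling libraries, narrowly, at 95.08 or more against 95.05 or less, as for 13% of all mRNAs. The fall of scaled CCPG1 from D0 and D7 to D180 and Y2 was thus not seen in its percentile. The later period averaged 95.4 ± 0.208 (SD, n = 4) and the suckling period 92.3 ± 4.12 (SD, n = 6), exact permutation p = 0.138, two-sided.

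SELENOS moved up the ranking with age. Its percentile was 53.40 to 57.30 at D0, 57.61 to 61.32 at D7, 62.87 to 67.51 in D28 pigs, 68.86 to 69.48 at D180 and 69.19 to 71.08 at Y2. Ages next to each other lay close or overlapped, and the 4 later libraries lay above all 6 suckling libraries, as they did for 13% of all mRNAs. The later mean was 69.7 ± 0.983 (SD, n = 4) and the suckling mean 60.0 ± 4.96 (SD, n = 6), a difference of 9.65 percentile points with a two-sided exact permutation p = 0.0143. The smallest p that such a design allows is 0.00476, and ages of a period served as replicates in it.

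The ratio of CCPG1 to SELENOS within a library was 12.6 and 14.2 at D0, 9.53 and 10.9 at D7 and 2.31 and 3.45 in D28 pigs. At D180 the ratio was 5.67 and 4.99, and at Y2 it was 5.41 and 5.57. It was thus highest in newborns, lowest at weaning, and in between at both later ages, with no overlap among these 3 sets. The mean log2 ratio did not differ detectably between the periods, 2.43 ± 0.0814 (SD, n = 4) against 2.86 ± 1.09 (SD, n = 6), two-sided exact permutation p = 0.462.

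**Figure D3:**
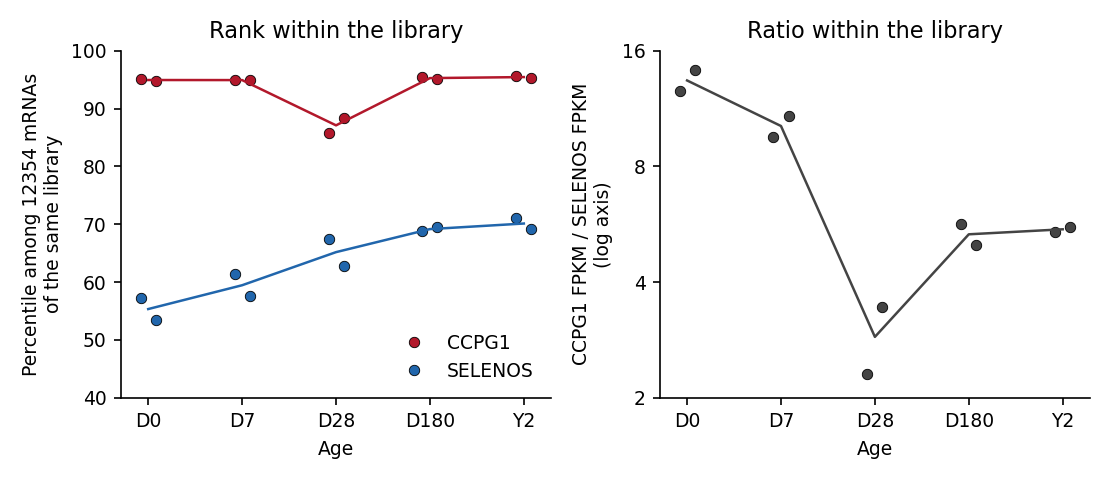
Measures within a library, by age. Left, the percentile of CCPG1 (red) and SELENOS (blue) among 12354 mRNAs; right, the CCPG1 to SELENOS ratio of FPKM on a log axis; points are single pigs and lines join age means. CCPG1 drops to 85.84 and 88.37 at D28, SELENOS climbs from 53.40 to 71.08, and the ratio is lowest at D28, at 2.31 and 3.45.

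CCPG1 spans positions 116447171 to 116492917 of chromosome 1 (Sscrofa11.1, RefSeq), 45747 bp with 11 RefSeq transcripts. SELENOS spans positions 139829002 to 139836923 of the same chromosome, 7922 bp with 1 RefSeq transcript. The RefSeq spans of C1H15orf65, MIR628 and PIGB overlap that of CCPG1, and none overlaps that of SELENOS. PIGB, an enzyme of GPI anchor synthesis, was the overlapping gene found by symbol among the mRNAs. Its age means were 0.154 to 1.64 FPKM as deposited, and 0.671 at D28 against 0.298 at D7 after scaling, with no drop at D28. Whether the authors counted reads by strand is not given in the sources used here, so shared reads of overlapping genes cannot be told apart.

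The study paired each member with a long non-coding RNA (lncRNA) inside its span, a choice made by position and by correlation in these samples. For CCPG1 this was TCONS_00003997, on the plus strand at positions 116458935 to 116461455, and for SELENOS it was TCONS_00014533, on the minus strand at positions 139835166 to 139836017. TCONS_00003997 measured 0.646 and 0.870 FPKM at D0, 1.16 and 1.11 FPKM at D7, 0.435 and 0.835 FPKM in D28 pigs, 7.50 and 7.57 FPKM at D180 and 3.64 and 3.99 FPKM at Y2. The D180 and Y2 pigs stood above the 6 younger pigs, and one D28 pig was the lowest of the 10. TCONS_00003997 fell by 0.39 from D7 to D28 as deposited, which was not called over all 5946 lncRNAs (limma adjusted p = 0.157), and by 0.96 after scaling (limma adjusted p = 0.0128), where 4.42% of lncRNAs were called lower. From D28 to D180 it rose by 2.39 as deposited (limma adjusted p = 2.06e-05) and by 1.12 after scaling (limma adjusted p = 0.00888), where 55.8% and 3.82% of lncRNAs were called higher. These called directions of TCONS_00003997 were those of CCPG1.

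TCONS_00014533 was scarce, at 0.0549 and 0.050 FPKM at D0, 0.134 and 0.166 FPKM at D7, 0.187 and 0.494 FPKM in D28 pigs, 1.26 and 1.34 FPKM at D180 and 0.954 and 0.338 FPKM at Y2. The pigs of D28 and those of Y2 differed more than they did for SELENOS, and one Y2 pig lay below one D28 pig. TCONS_00014533 rose by 0.79 from D28 to D180 as deposited (limma adjusted p = 0.00606). After scaling its change of 0.11 was not called (limma adjusted p = 0.765). Within the 6 suckling libraries, CCPG1 and its lncRNA had Pearson's r = 0.720 (exact permutation p = 0.139, 0.139 adjusted over 3 pairs) and Spearman's rho = 0.771 (exact permutation p = 0.103). SELENOS and its lncRNA had r = 0.655 there (exact permutation p = 0.122, 0.139 adjusted) and rho = 0.886 (exact permutation p = 0.0333, not adjusted). For CCPG1 and its lncRNA the later libraries stood apart on both axes, so r over all 10 is given only with the processing alternatives at the end. For SELENOS and its lncRNA the later libraries stood apart for the gene and not for the lncRNA. Over all 10 libraries that pair had r = 0.945 (permutation p = 0.000300, 0.000450 adjusted over 3 pairs) and rho = 0.952 (permutation p = 7.0e-05), and without both D180 libraries r = 0.802 (exact permutation p = 0.0159) and rho = 0.905 (exact permutation p = 0.00456). On log2(FPKM + 1) as deposited r was 0.918, below the median r of 0.965 between SELENOS and 9196 mRNAs with a mean of at least 1 FPKM. The small p-values therefore do not set this pair apart from most mRNAs. After scaling r was 0.584 (permutation p = 0.0782). The D0 values of TCONS_00014533, which spans 852 nt, may rest on few reads. The study chose both pairs by position and by an absolute r above 0.95 in these samples, so none of these correlations is independent evidence. The r of 0.945 found here for SELENOS and its lncRNA lies just below that limit.

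**Figure D4:**
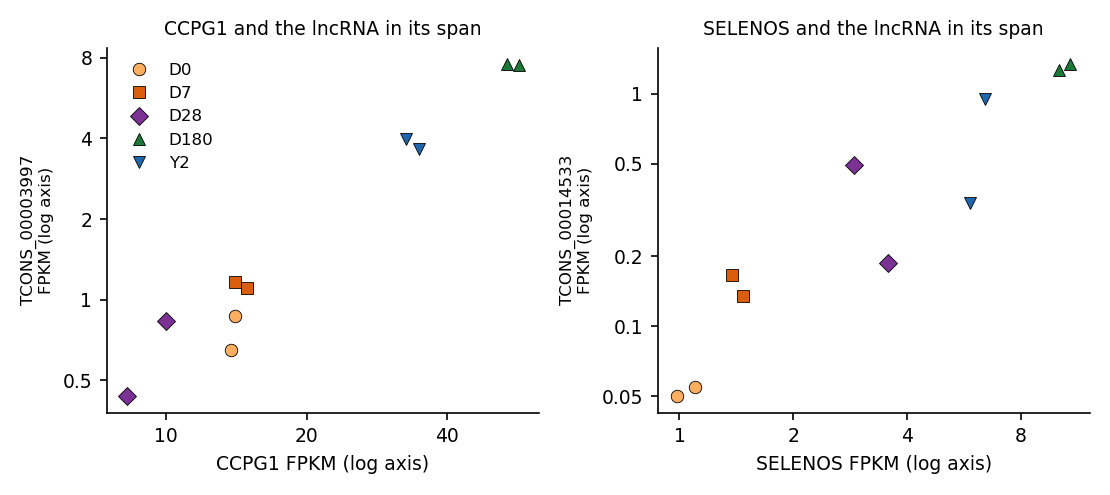
FPKM as deposited of each gene (x, log axis) against the lncRNA in its span (y, log axis); each point is 1 pig, with colour and shape for age. The 4 pigs of D180 and Y2 form a set of their own at the upper right for CCPG1, while for SELENOS a Y2 pig at 0.338 FPKM of lncRNA lies below a D28 pig at 0.494 FPKM.

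As deposited, most measured genes of the ER lists rose, as most mRNAs did. From D7 to D28, 9 of 12 unfolded protein response genes, 18 of 19 chaperones, 17 of 18 ERAD genes, 14 of 19 ER-phagy and autophagy genes and 8 of 14 selenoprotein genes were called higher, beside 65.3% of all mRNAs. From D28 to D180 these counts were 11, 18, 18, 14 and 14, beside 90.6% of all mRNAs. The ER-phagy and autophagy list differed in its lower calls, with 5 of 19 from D28 to D180 and 5 of 19 between the periods, beside 3.32% and 2.1% of all mRNAs. The directions of listed genes that follow are after scaling.

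Of the sensors of the unfolded protein response, EIF2AK3 and ATF6 fell into weaning after scaling and ERN1 was not called. ATF6 fell by 0.44 from D7 to D28 (limma adjusted p = 0.00214) and as deposited rose by 0.28, and ERN1 changed by -0.42 (limma adjusted p = 0.0550). Of 15 listed sensors, transcription factors and regulators 12 were found by symbol, and ATF4, DDIT3 and MBTPS2 were not. After scaling 2 of the 12 rose, 4 fell and 6 were not called from D7 to D28. Their median log2 change was -0.11 against 0.02 over all mRNAs, of which 18.4% rose and 22.8% fell. In the step from D28 to D180, 4 of the 12 rose and 2 fell, beside 14.4% and 18% of all mRNAs. EIF2AK3, which encodes the sensor PERK, had scaled values of 5.21 and 5.17 at D7, 4.41 and 4.21 at D28 and 6.04 and 6.34 at D180. EIF2AK3 thus fell by 0.22 into D28 (limma adjusted p = 0.0211) and rose by 0.44 out of it (limma adjusted p = 0.000887), and as deposited it rose in both steps, by 0.51 and 1.87. PPP1R15A, which helps to remove the phosphate that PERK adds to eIF2, went the other way, at 1.11 and 1.13 at D7, 2.64 and 3.23 at D28 and 0.599 and 0.745 at D180. XBP1, the transcription factor activated by the ERN1 product, rose by 0.54 from D7 to D28 after scaling (limma adjusted p = 0.00913).

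ER chaperones and folding enzymes, 19 of 20 measured, were higher at weaning more often than lower. After scaling 7 rose, 1 fell and 11 were not called from D7 to D28, with a median of 0.13, beside 18.4% of all mRNAs higher and 22.8% lower. HYOU1, a large ER chaperone, had scaled values of 1.80 and 1.81 at D7, 3.61 and 3.49 at D28 and 3.02 and 2.80 at D180, and rose by 0.70 into D28 (limma adjusted p = 8.19e-05). HSPA5, the chaperone BiP that the sensors bind, rose by 0.29 (limma adjusted p = 0.0180) in the step in which CCPG1 fell by 1.5. As deposited, 18 of the 19 rose from D28 to D180, when 90.6% of all mRNAs did. After scaling 3 rose, 5 fell and 11 were not called in that step, with a median of -0.095, beside 14.4% of all mRNAs higher and 18% lower.

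ERAD genes, the pathway of SELENOS, were measured for 18 of 20. After scaling 3 rose, 4 fell and 11 were not called from D7 to D28, and 1 rose and 3 fell between the periods, with medians of -0.05 and 0.03, and among all mRNAs 6.78% rose and 11.2% fell between the periods. In the step from D28 to D180, 3 of the 18 rose and 3 fell, beside 14.4% and 18% of all mRNAs. VCP, the ATPase that SELENOS binds, ran from 8.21 to 12.9 over the 10 libraries after scaling and was called in no step. SEL1L, the adaptor of the ubiquitin ligase SYVN1, was higher in the later period by 0.29 (limma adjusted p = 0.0409), while SYVN1 itself was lower by 0.81 (limma adjusted p = 0.0284) and, as deposited, higher by 0.97. OS9, a lectin that picks misfolded glycoproteins for ERAD, had the largest fall of the list into D28, from 34.0 and 31.7 at D7 to 9.84 and 9.33, and then 19.8 and 19.4 at D180. OS9 fell by 1.68 and rose by 0.96 on the scaled log2 scale, limma adjusted p = 1.03e-06 and 1.84e-05, steps of about the size of those of CCPG1.

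ER-phagy receptors and autophagy genes, the pathway of CCPG1, were measured for 19 of 20. After scaling none rose, 11 fell and 8 were not called from D7 to D28, with a median of -0.23, beside 18.4% of all mRNAs higher and 22.8% lower. From D28 to D180, 2 of these rose and 9 fell, with a median of -0.29, where 14.4% of all mRNAs rose and 18% fell. The 2 that rose were SQSTM1, a cargo receptor of autophagy, by 0.42 (limma adjusted p = 0.00151) and ATG7, the enzyme that activates ubiquitin-like autophagy proteins, by 0.63 (limma adjusted p = 0.00620).

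The ER-phagy receptor SEC62, also part of the protein translocation channel, was highest in newborns and lowest at D180 after scaling. Its scaled values were 189 and 200 at D0, 119 and 118 at D7, 81.0 and 103 in D28 pigs, 14.1 and 13.3 at D180 and 26.8 and 26.6 at Y2. GABARAPL2 and MAP1LC3B, of the family of autophagosome proteins that receptors bind, were also lower in the later period, by log2 changes of -3.07 (limma adjusted p = 0.000828) and -2.43 (limma adjusted p = 0.000142), and as deposited by -1.25 and -0.77. The 6 measured red cell markers were also lower in the later period after scaling, 6 of 6 with a median of -3.33, where 11.2% of all mRNAs were called lower. Their scaled sums, nearly all HBB, were 1055490 to 1103200 at D0, 800449 to 827648 at D7, 337334 to 351780 in D28 pigs, 37464 to 47441 at D180 and 148441 to 178221 at Y2. From D7 to D28, 4 of the 6 were called lower and 1 higher, beside 22.8% and 18.4% of all mRNAs. EPB42 went up in that step, from 54.4 and 52.3 to 87.5 and 98.5 after scaling. The part of red cells in the levels of the autophagy genes was not tested. Another receptor, TEX264, was called in no step after scaling.

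Selenoproteins and the genes that insert selenocysteine were measured for 14 of 20. After scaling 2 rose and 5 fell from D7 to D28, and none rose and 2 fell between the periods, with a median of -0.19 against a change of 0.32 for SELENOS. Over all mRNAs, 18.4% rose and 22.8% fell in that step, and 6.78% rose and 11.2% fell between the periods, so the counts lie near the background. MSRB1, a selenoprotein that repairs oxidised methionine, was lowest at D28 as CCPG1 was, at 7.09 and 7.11 at D7, 2.15 and 2.18 at D28 and 4.13 and 3.83 at D180. GPX4, which reduces lipid peroxides, was lower in the later period by a log2 change of -0.36 (limma adjusted p = 0.0430) and, as deposited, higher by 1.26. A further list holds ER, ER export and autophagy genes picked here by theme from the gene pairs that the study formed by correlation in these samples, so it is not independent of these data. Of its 13 genes 12 were measured, and all 12 were higher from D28 to D180 as deposited, beside 90.6% of all mRNAs. After scaling 3 of the 12 were higher and none lower, beside 14.4% and 18%.

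**Figure D5:**
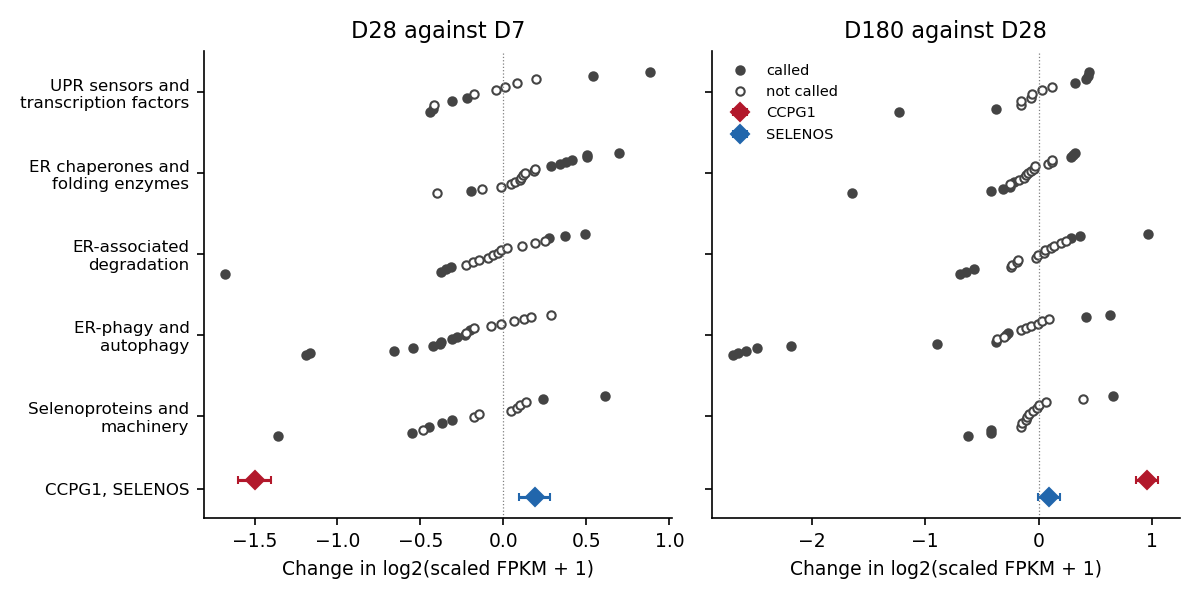
Change in log2(scaled FPKM + 1) from D7 to D28 (left) and from D28 to D180 (right) for each measured gene of 5 lists, filled where called by limma. Diamonds give CCPG1 (-1.5 and 0.96) and SELENOS (0.19 and 0.09) with bars of 1 SE; most filled ER-phagy and autophagy genes lie left of 0 in both panels.

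Markers of neutrophils and monocytes were lower at D28 than at D7, as CCPG1 was. The 3 of 5 neutrophil markers that were measured (S100A8, S100A12, CSF3R) summed to 191 to 202 scaled FPKM at D0, 92.2 to 94.3 at D7, 11.11 to 12.1 in D28 pigs, 38.6 to 41.7 at D180 and 41.7 to 43.0 at Y2. The 4 monocyte markers summed to 178 to 195 at D0, 93.4 to 93.5 at D7, 30.9 to 33.5 in D28 pigs, 54.7 to 56.6 at D180 and 47.9 to 50.4 at Y2. All 3 and all 4 fell from D7 to D28 after scaling, beside 22.8% of all mRNAs, with medians of -2.67 and -1.65 against -1.5 for CCPG1. From D28 to D180, 1 of 3 and 4 of 4 rose, beside 14.4% of all mRNAs. From D0 to D7, where scaled CCPG1 was not called, 1 neutrophil marker rose and 2 fell, and 2 monocyte markers rose and 1 fell, beside 17.8% of mRNAs higher and 20.1% lower. The lower sums at D7 came from S100A8 and LYZ, while CSF3R, CD14 and CSF1R rose by 0.96, 0.86 and 1.12. CSF3R, the receptor for granulocyte colony-stimulating factor, was at 54.2 and 53.2 at D7, 7.87 and 7.34 at D28 and 35.9 and 33.4 at D180. None of these markers was at 0 in any library, and their part in the course of CCPG1 was not tested.

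Summed markers of T and NK cells were highest at D28, the age at which CCPG1 was lowest. The 4 of 6 measured T cell markers summed to 110 to 116 scaled FPKM at D28 and to 58.9 to 76.2 at the other ages. Of these, CD3D was at 14.3 and 15.9 in D28 pigs but at 9.01 and 23.0 in D0 pigs. The 4 NK cell markers summed to 102 to 119 at D28 and to 24.4 to 55.0 at the other ages. From D7 to D28, 3 of 4 T cell and 4 of 4 NK cell markers were called higher after scaling, beside 18.4% of all mRNAs. The 2 of 4 measured platelet markers summed to 254 to 256 at D0 and to 32.8 to 35.3 at Y2. Nearly all of that sum was PPBP, and from D28 to D180 PPBP fell by 0.57 while GP9 rose by 0.64 (limma adjusted p = 0.000552 and 0.00216). The part of these cells in the levels of either member was not tested.

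Summed B cell markers rose over the ages as scaled SELENOS did, while the plasma cell sum rose up to D28. The 5 B cell markers summed to 15.3 to 15.6 scaled FPKM at D0, 20.9 to 21.9 at D7, 35.1 to 35.7 in D28 pigs, 56.4 to 56.7 at D180 and 61.1 to 62.7 at Y2, the same order of ages as scaled SELENOS. All 5 were higher in the later period after scaling, beside 6.78% of all mRNAs, with a median of 0.74 against 0.32 for SELENOS. The 4 plasma cell markers summed to 2.34 to 4.11 at D0 and 7.46 to 8.48 at D7. From D28 on their sums overlapped, at 12.2 to 18.2 at D28, 14.9 to 18.6 at D180 and 15.2 to 16.3 at Y2, and were mostly JCHAIN. In the later period 3 of the 4 were called higher after scaling, beside 6.78% of all mRNAs. TNFRSF17, which marks plasma cells, was listed at 0 in both D0 libraries. The part of B cells and plasma cells in the course of SELENOS was not tested.

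The mRNAs most like each member were taken by Pearson's r over the 10 libraries after scaling, among 9196 mRNAs with a mean of at least 1 FPKM. For CCPG1 the leading named genes were ALOX5AP (r = 0.992), which serves leukotriene synthesis, ASH1L (r = 0.986), a histone methyltransferase, and ANXA1 (r = 0.985), an annexin abundant in myeloid cells. ENSSSCG00000039758 and ENSSSCG00000031023, with no symbol in the reference, stood at r = 0.992. ALOX5AP had scaled means of 40.9 ± 2.02 at D0, 38.9 ± 1.53 at D7, 5.43 ± 0.404 in D28 pigs, 19.7 ± 1.76 at D180 and 24.9 ± 0.722 at Y2 (SD, n = 2). Its drop at weaning was deeper than that of CCPG1. Of the 9196 mRNAs, 0.489% had r above 0.95 with CCPG1, and the median r was 0.0133.

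For SELENOS the mRNAs most like it were CD79A (r = 0.976), a chain of the B cell receptor and one of the B cell markers above, EMC1 (r = 0.964), a subunit of the ER membrane protein complex, and LMAN1 (r = 0.961), a cargo receptor between ER and Golgi. TBC1D9B (r = 0.959) and TOM1L2 (r = 0.958) followed. LMAN1 had scaled means of 2.48 ± 0.0378 at D0, 2.76 ± 0.0143 at D7, 3.27 ± 0.272 in D28 pigs, 3.28 ± 0.111 at D180 and 3.51 ± 0.106 at Y2 (SD, n = 2). Of the mRNAs, 0.0870% had r above 0.95 with SELENOS. As deposited, the most like CCPG1 were ANXA1, ENSSSCG00000031023, CD300LB, ENSSSCG00000031653 and MBOAT1, and the most like SELENOS were TOM1L2, LMAN1, RHOH, EMC1 and BORCS6. On that scale 61.0% of mRNAs had r above 0.95 with SELENOS and 3.27% with CCPG1.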

How the data were processed

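The mRNA and lncRNA tables hold FPKM that the authors deposited for 10 libraries. The authors aligned reads to Sscrofa11.1 with HISAT2 (2.0.4), quantified mRNAs with StringTie (1.3.3) and worked on lncRNAs with Cufflinks (2.2.1). The paper gives the reads of each library. The deposited FPKM show no steps of whole reads, so the reads behind each value are not known and no counting interval is given. The mRNA table keeps rows that reach 0.5 FPKM in some library. No sample column was left out.

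The values were tested with limma (3.58.1, R 4.3.3) on log2(FPKM + 1), with a mean-variance trend, 5 ages in one fit or 2 periods, and Benjamini-Hochberg adjustment over 12354 mRNAs or 5946 lncRNAs. A call needed an adjusted p of at most 0.05. Fold changes on this scale understate changes of low genes. The study's methods did not name the mRNA test. Percentiles and ratios had two-sided exact permutation tests over all 210 splits. Median-of-ratios scaling used 11527 mRNAs above 0 in all libraries. In data simulated for D180 against D28 over 12354 genes, 88% of 100 changes of 1 and 98% of 100 changes of 2 (log2) were recovered, with 8 false calls. The simulated libraries had no shift shared by most mRNAs, unlike the deposited ones. Only genes with a mean log2 value above 1 were changed, and changes smaller than 1 were not tried.

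Members and gene lists were chosen with earlier results of these data known. Named genes were the members, the lncRNAs paired with them, the listed genes and the 5 mRNAs most like each member on each scale. Symbols came from a reference table for 9735 of 12354 identifiers. Listed genes called measured are those found by symbol, and the others may be among the mRNAs without a symbol. Comparisons of ages that are not neighbours and the lncRNA tests were added after values were seen. Alternatives were the scaling, removal of the 10 highest mRNAs, a pseudocount of 0.1, a filter of 1 FPKM in 2 libraries, no trend, only the ages compared, a replicate block and leaving out each library.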

Additional observations from a re-analysis of the deposited data

Results flagged for a closer look

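Among 18 groups of values tested for a library far from the rest, 1 stood out, and chance gives about 1 in 20. In the suckling period 1 of the 6 libraries, the second D28 pig, had 0.494 FPKM of TCONS_00014533, the lncRNA inside SELENOS. The gap to its nearest neighbour was 0.69 of the range of the 6, above the 95% limit of Dixon's test for 6 values.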

How the results depend on the processing

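Of the alternatives, median-of-ratios scaling and removal of the 10 highest mRNAs changed most. With scaling, CCPG1 turned to -0.16 from D0 to D7, 0.16 from D180 to Y2 and -0.014 between the periods, and SELENOS turned to 0.10 from D180 to Y2. SELENOS kept its direction but was no longer called from D7 to D28 (0.19), from D28 to D180 (0.091) and between the periods (0.32). With the 10 highest removed, CCPG1 (0.32) and SELENOS (0.46) were called higher from D0 to D7, and neither was called from D180 to Y2 (-0.032 and -0.068). With a pseudocount of 0.1, SELENOS was called higher from D0 to D7 (0.42). The causes were not tested.

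Pearson's r over all 10 libraries joins both periods. It was 0.944 for CCPG1 with SELENOS, -0.600 scaled and -0.965 in the 6 suckling libraries (exact permutation p = 0.0208, 0.0625 adjusted over 3 pairs). It was 0.993 for CCPG1 with TCONS_00003997, 0.496 scaled and 0.720 in the suckling libraries. It was 0.945 for SELENOS with TCONS_00014533, 0.584 scaled and 0.655 in the suckling libraries.

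Leaving out 1 library gave -0.25 to 0.11 for scaled CCPG1 between the periods, positive without either D0 pig (0.11 and 0.10), either D7 pig (0.077 and 0.074) or the second D180 pig (0.040). Without D180 that value was 0.068. Scaled SELENOS ran from -0.0062, without the second D28 pig, to 0.19 from D28 to D180. Scaled SELENOS between the periods ran from 0.27 to 0.38, and was called without the first D28 pig (adjusted p = 0.0184). SELENOS from D0 to D7 ran from 0.21 to 0.29, called without either D28 pig (adjusted p = 0.0456 and 0.0454). Pigs with the same number share only that number: the correlations of their deviations ran from -0.082 to 0.078 over 10 pairs of ages, and a fit with the replicate block left all 10 calls as they were (CCPG1 from D7 to D28, -0.62, adjusted p = 0.000755). The lack of counts limits what can be said of TCONS_00014533.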
